A study of Mus musculus with 27 samples.

Results

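The Het effect on expression was compared between whole lung and mouse embryonic fibroblasts, primary cells grown from embryos. The comparison used 12 of the 27 libraries of a bulk RNA sequencing series on Foxm1, in 4 of its 9 groups of 3 libraries. The groups were lungs labelled WT and Het, taken whole from animals 10 days old, and fibroblasts of the second experiment labelled WT and Het, of early passage, harvested while dividing asynchronously and near confluence. All groups were of strain C57BL/6, and none of the 4 carried the NTD label found on other fibroblasts of that experiment. Libraries were chosen by their labels and not by any measured value. The labels do not describe the Foxm1 allele behind Het, and they do not say whether libraries of a group came from separate animals, embryos or cultures, so a p-value here speaks only of the variation among the libraries sequenced. The measure was the interaction, the log2 change of Het against WT in lung minus the same change in fibroblasts: a positive value means that a gene was lower in Het fibroblasts, higher in Het lung, or both, relative to the other tissue. It was tested for 16364 of 24062 gene symbols.

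FoxM1 is a forkhead transcription factor that is high in dividing cells and drives genes of G2 and mitosis, such as those for mitotic cyclins, kinases and kinesins. The series title also names Ect2, an exchange factor that activates the GTPase RhoA at the cleavage furrow, and mDia1, a formin acting below RhoA. The lung of a young mouse is a mixture of epithelium, endothelium, mesenchyme and blood cells, some of them dividing. Fibroblasts in culture are a dividing mesenchymal population. The summed level of the G2/M genes listed here was 553 to 800 CPM in lung and 4057 to 5138 CPM in fibroblasts. Age, culture and experiment differ between the tissues as well as cell type, and these cannot be told apart. In bulk RNA, fewer cells of a type and less RNA per cell cannot be told apart either.

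Total counts were 29730693 to 50326730 per lung library and 34713673 to 42487179 per fibroblast library. Levels are given as CPM, counts relative to library size with the 12 libraries scaled together. Marker genes went with the tissue labels: Sftpc, the surfactant protein of alveolar type 2 cells, was 10698 to 20746 CPM in the lung libraries and at most 0.402 CPM in fibroblasts, and Col1a1, a collagen of mesenchymal cells, was 1021 to 1661 CPM in lung and 16741 to 24057 CPM in fibroblasts. Lung WT 1 and Lung Het 3 stood apart from the other lung libraries on the first principal component, and the mean level of cardiac and skeletal muscle markers was 2.14 on the log2 scale in Lung WT 1 against 3.86 to 5.08 in the other lung libraries. Y-linked RNA was high in 1 of 3 WT and 2 of 3 Het lung libraries and in 1 of 3 libraries of each fibroblast group.

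Foxm1 itself (chromosome 6, 128362967 to 128376146, GRCm38, plus strand) did not differ between tissues in its Het effect beyond the error. In fibroblasts it was 164, 165 and 168 CPM in WT and 143, 147 and 145 CPM in Het, so the groups did not overlap, with a log2 change of -0.19 (edgeR adjusted p = 0.218). In lung its level was far lower, at 18.1, 16.3 and 16.7 CPM in WT and 15.3, 15.9 and 17.9 CPM in Het, with overlapping groups and a log2 change of -0.05 (edgeR adjusted p = 1). The interaction was 0.14 ± 0.11 (SE; 95% interval -0.11 to 0.38, edgeR adjusted p = 0.799). Counts per gene symbol cannot tell an altered allele from an intact one, so they neither bear out the label Het nor contradict it.

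Ect2, Rhoa and Diap1, the gene for mDia1, also gave no call in the interaction. Ect2 was 84.7, 95.5 and 91.0 CPM in WT and 65.6, 69.3 and 62.7 CPM in Het fibroblasts (log2 change -0.46), and 13.2, 12.4 and 15.4 against 7.90, 12.7 and 13.0 CPM in lung (-0.28). The direction was the same in both tissues, the fibroblast groups did not overlap and the lung groups did, and the interaction of 0.17 had a 95% interval from -0.32 to 0.67 (edgeR adjusted p = 0.954). Rhoa had an interaction of -0.04 ± 0.17 (SE) and Diap1 of -0.04 ± 0.43, both with edgeR adjusted p = 1. Diap1 ranged from 31.2 to 100 CPM among the Het lungs, a spread wider than in any other of the 4 groups.

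The Het effect differed between lung and fibroblasts for 184 genes, which is 1.12 percent of those tested: 133 were higher (0.813 percent) and 51 lower (0.312 percent) in the interaction (edgeR quasi-likelihood test, adjusted p under 0.05). All 184 were also called in Het against WT fibroblasts, 133 as lower and 51 as higher, and for all 184 the fibroblast change was larger than the lung change. Fibroblast libraries enter both tests, so the second call is not independent of the first. In lung the same genes had log2 changes from -1.55 to 0.60 with a median absolute value of 0.11, and 180 of the 184 lay within 0.5 of 0. The other four, Cdh8, C330024D21Rik, Gm10653 and Fgf16, had mean levels under 1 CPM in both lung groups; they were named after their values were seen. Without 1 lung library the 184 became 62, 50 and 39 (WT 1, 2 and 3) or 121, 58 and 546 (Het 1, 2 and 3). Without 1 fibroblast library they became 266, 99 and 134 (WT 1, 2 and 3) or 268, 100 and 63 (Het 1, 2 and 3). Without Lung WT 1 and Lung Het 3 together there were 531, of which 164 were among the 184. Of the 184, 37 passed without any 1 library, 23 higher and 14 lower.

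**Figure D1:**
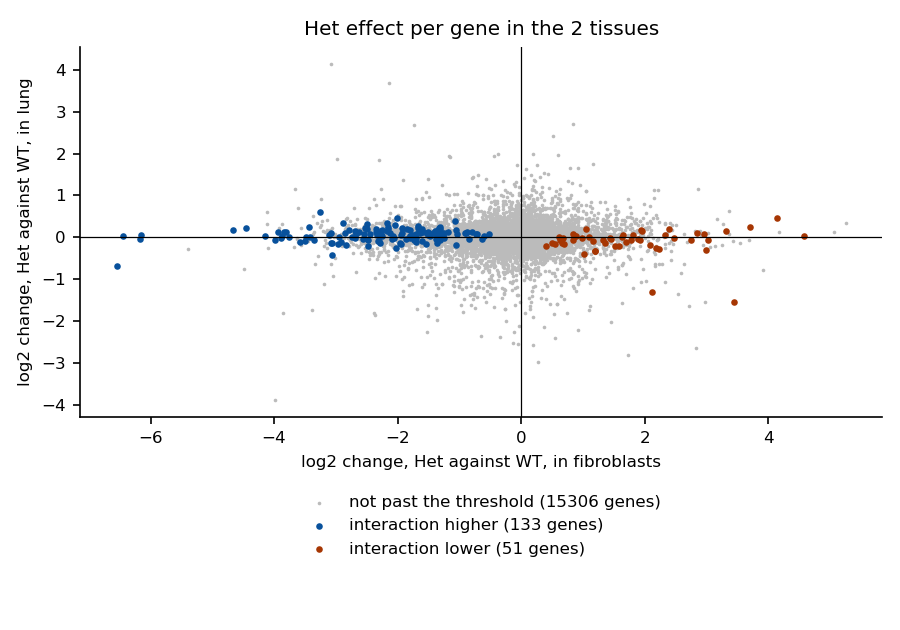
Each point is 1 of 15490 genes with counts in both tissues, placed by its log2 change of Het against WT in fibroblasts (x axis) and in lung (y axis); genes with a group at 0 counts are placed at a bound from a floor of 3 counts. The 133 genes higher and 51 lower in the interaction spread along the x axis and lie close to 0 on the y axis.

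Het against WT within each tissue gave 0 calls in lung (0 percent) and 983 in fibroblasts (6.01 percent), of which 306 rose (1.87 percent) and 677 fell (4.14 percent). In lung, 237 genes (1.45%) had an unadjusted p under 0.05 in edgeR. That share is below the 0.05 that would be met without any effect, so the lung test was conservative here. Without Lung Het 3 the number was 2898 of 16558 genes, still with 0 calls, so it rested on 1 library. With all lungs, DESeq2 called 1 gene, with 349 at an unadjusted p under 0.05. That gene, D430041D05Rik, was 8.36, 7.42 and 9.53 CPM in WT and 2.08, 3.15 and 3.28 CPM in Het lungs, groups that did not overlap (log2 change -1.57, edgeR adjusted p = 1, DESeq2 adjusted p = 4.8e-05). In fibroblasts it had 4 counts over the WT and 14 over the Het libraries. No gene was called in both tissues. The fibroblast count became 537 without WT 2, 587 without Het 2 and 441 without Het 3, and without Lung WT 1 and Lung Het 3, which enter the shared spread, 1608.

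With all lungs kept, the fibroblast changes were not seen as a trend in lung, where the readout shares no library with the fibroblast one. The 677 genes that fell in fibroblasts had a median log2 change of -1.57 there and of 0.003 in lung (quartiles -0.10 and 0.11 over the 675 with lung counts), and 331 of them (49.0%) were below 0 in lung. The 306 that rose had medians of 0.92 in fibroblasts and 0.01 in lung (quartiles -0.08 and 0.10 over 303), and 158 of those (52.1%) were above 0 in lung. Over all genes with counts in both tissues, 51.6% had the same sign. Across the 978 fibroblast genes Pearson's r between the tissues was -0.08, a description over genes that are not independent. The 95% interval of the lung change lay within 2-fold in both directions for 788 of the 978 (80.6%). Its width came from the shared spread, which was smaller than that of lung alone. The lung interval left out the fibroblast value for 962, but these genes had been chosen for a fibroblast change large against its error. The error of that change is not in the lung interval. The interaction, which holds both errors, called 184 of the 983. The interaction passed for 23 of 353 fibroblast genes changed under 2-fold (6.52%), 73 of 348 changed 2- to 4-fold (21%) and 88 of 282 changed over 4-fold (31.2%). The fibroblast change is part of the interaction, so with lung changes near 0 a share that grows with it is built in. The error of the interaction holds that of both tissues.

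Ucp2, a carrier of the inner mitochondrial membrane, had the lowest p (chromosome 7, 100493337 to 100502020, plus strand). It was 18.1, 20.8 and 17.6 CPM in WT and 197, 178 and 188 CPM in Het fibroblasts, against 326, 309 and 341 in WT and 371, 380 and 328 CPM in Het lungs. The fibroblast groups lay far apart and the lung groups overlapped, with log2 changes of 3.32 and 0.15 and an interaction of -3.18 ± 0.13 (SE, edgeR adjusted p = 8.7e-07). Exons of Dnajb13 on the other strand overlap it, and the kit does not mark strand.

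The other lowest interactions were genes that rose from low levels in Het fibroblasts. Eltd1, an adhesion receptor of endothelium, was 0.0597, 0.144 and 0.129 CPM in WT and 4.1, 2.27 and 1.74 CPM in Het fibroblasts, with lung libraries at 39.7 to 59.9 CPM (interaction -4.54 ± 0.54 SE, edgeR adjusted p = 0.004). Rbm46, an RNA-binding protein of germ cells, was 0.298, 0.231 and 0.129 against 2.84, 4.32 and 4.70 CPM (-3.68 ± 0.43, edgeR adjusted p = 0.004). Both were separated in fibroblasts in every library, and their lung changes were 0.04 and 0.46. Rbp4, the carrier of retinol in blood, had an interaction of -2.90, Apold1, an endothelial early response gene, of -2.44, and Rps15a-ps6, a ribosomal pseudogene whose reads may belong to its parent gene or other copies, of -3.47. Wnt7b, a Wnt ligand of lung epithelium, had -2.81 (edgeR adjusted p = 0.0155) and did not pass without Lung WT 3 (0.0524). Cilp, a cartilage matrix protein (-3.30), the potassium channel Kcnh1 (-3.09) and Cdh5, the cadherin of endothelial junctions (-2.73), passed with edgeR adjusted p of 0.0295, 0.0254 and 0.0254. Cilp kept its call in edgeR without Lung WT 1, Lung Het 3, fibroblasts WT 1, Het 1 or Het 3 and lost it without each of the other seven (adjusted p up to 0.0939). Kcnh1 lost it without Lung WT 1, 2 or 3, Lung Het 1 or 2 or fibroblasts Het 3 (up to 0.0732), and Cdh5 without Lung WT 1, 2 or 3, Lung Het 2 or fibroblasts WT 1, WT 3 or Het 2 (up to 0.0732). The endothelial marker list did not go one way: of 14 tested, Cdh5 alone rose in fibroblasts, Ednrb, an endothelin receptor, fell (-1.49, edgeR adjusted p = 0.0112), and 5 of the 11 with counts in both tissues were below 0 there.

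The highest interactions were genes near 0 in Het fibroblasts that were present in WT fibroblasts and in both lung groups. Trim12a, a member of the TRIM5-like antiviral family on chromosome 7 (104299894 to 104315466, minus strand), was 6.56, 5.40 and 4.95 CPM in WT and 0.107, 0.112 and 0 CPM in Het fibroblasts. Over the groups this was 561 against 8 counts, so WT had 74.3 times the Het level (95% interval from counting error 37.4 to 173). In lung it was 14.4, 18.8 and 18.5 CPM in WT and 18.5, 18.9 and 16.7 CPM in Het, so no loss was seen there (interaction 6.23 ± 0.46 SE, edgeR adjusted p = 1.7e-04). Its neighbour Trim30d had 246 counts over the WT fibroblasts and 0 over the Het ones, at least 86.8-fold lower against a floor of 3 counts over the group, and lung means of 7.99 ± 1.10 and 8.21 ± 0.756 CPM (SD, n = 3; edgeR adjusted p for the interaction 2.0e-04). Another gene of the family, Trim30a, was 4.06, 2.45 and 1.54 CPM in WT and 0.616, 0.337 and 0.623 CPM in Het fibroblasts (interaction 2.47, edgeR adjusted p = 0.032), and lost its call without Lung WT 1, 2 or 3, Lung Het 2 or fibroblasts WT 2, Het 2 or Het 3 (up to 0.0977). The family has near-identical copies, so how the counting divided reads among them is uncertain.

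Lrrtm3, a synaptic adhesion protein, fell from 642 to 9 counts over the fibroblast groups (ratio 75.5, 39.5 to 166), with lung libraries at 0.961 to 2.25 CPM and an interaction of 6.13 (edgeR adjusted p = 0.00542). Blnk, the adaptor of B cell receptor signalling, was 1.67, 1.44 and 2.09 CPM in WT and 0.0536, 0.112 and 0.187 CPM in Het fibroblasts and stayed at 3.36 to 5.27 CPM in all lungs (interaction 3.91, edgeR adjusted p = 0.004). Olfml1, a secreted olfactomedin-like protein, had 3.92 and Rnaset2b, a lysosomal ribonuclease with a near-identical copy, 3.96. Those 4 passed without any 1 library. Cd36, the fatty acid receptor, was 5.73, 9.53 and 10.2 CPM in WT and 1.29, 0.281 and 0.249 CPM in Het fibroblasts, far under its lung levels of 323 to 619 CPM. Its interaction of 3.77 (edgeR adjusted p = 0.0191) did not pass without Lung WT 2, Lung WT 3 or fibroblasts Het 3 (up to 0.0673). The interleukin 10 receptor gene Il10ra (3.87, edgeR adjusted p = 0.0361) and Bmp3 (3.42, 0.0473), a BMP family ligand, kept the call when Lung Het 3 was left out, Il10ra also when fibroblasts Het 1 was left out and Bmp3 when fibroblasts WT 1 was. Leaving out any other library ended it (adjusted p up to 0.104 and 0.117).

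In all, 18 genes passed under all 22 alternatives tried, among them Ucp2, Eltd1, Rbm46, Trim12a, Trim30d, Blnk and Olfml1. The others had smaller changes with low error, and this group was singled out after its values were seen. Icam1, the leukocyte adhesion receptor, was 19.1, 27.9 and 21.3 CPM in WT and 5.25, 4.43 and 3.89 CPM in Het fibroblasts, and 216 to 308 CPM in the lungs (interaction 2.37 ± 0.25 SE, edgeR adjusted p = 0.0025). Arl5a, a GTPase of the Golgi, was 181, 175 and 180 against 75.1, 74.7 and 75.9 CPM in fibroblasts and 105 to 131 CPM in lung (1.24 ± 0.13, edgeR adjusted p = 0.00184). Its fibroblast values were tight in each group, while the lung groups overlapped. Frmd4b had an interaction of 1.79 and Epb4.1l4b, both FERM domain proteins, of 1.99. In the other direction Cotl1, an actin-binding protein, was 49.9, 45.2 and 49.96 CPM in WT and 142, 111 and 138 CPM in Het fibroblasts and 90.3 to 107 CPM in lung (-1.46 ± 0.15, edgeR adjusted p = 0.00184). Pygl, the liver form of glycogen phosphorylase, had -1.63, the Ras-like gene Rasl12 -1.86, the amine oxidase Aoc3 -1.51 and the dynein light chain Dynlt1b, which has near-identical copies, -1.52.

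**Figure D2:**
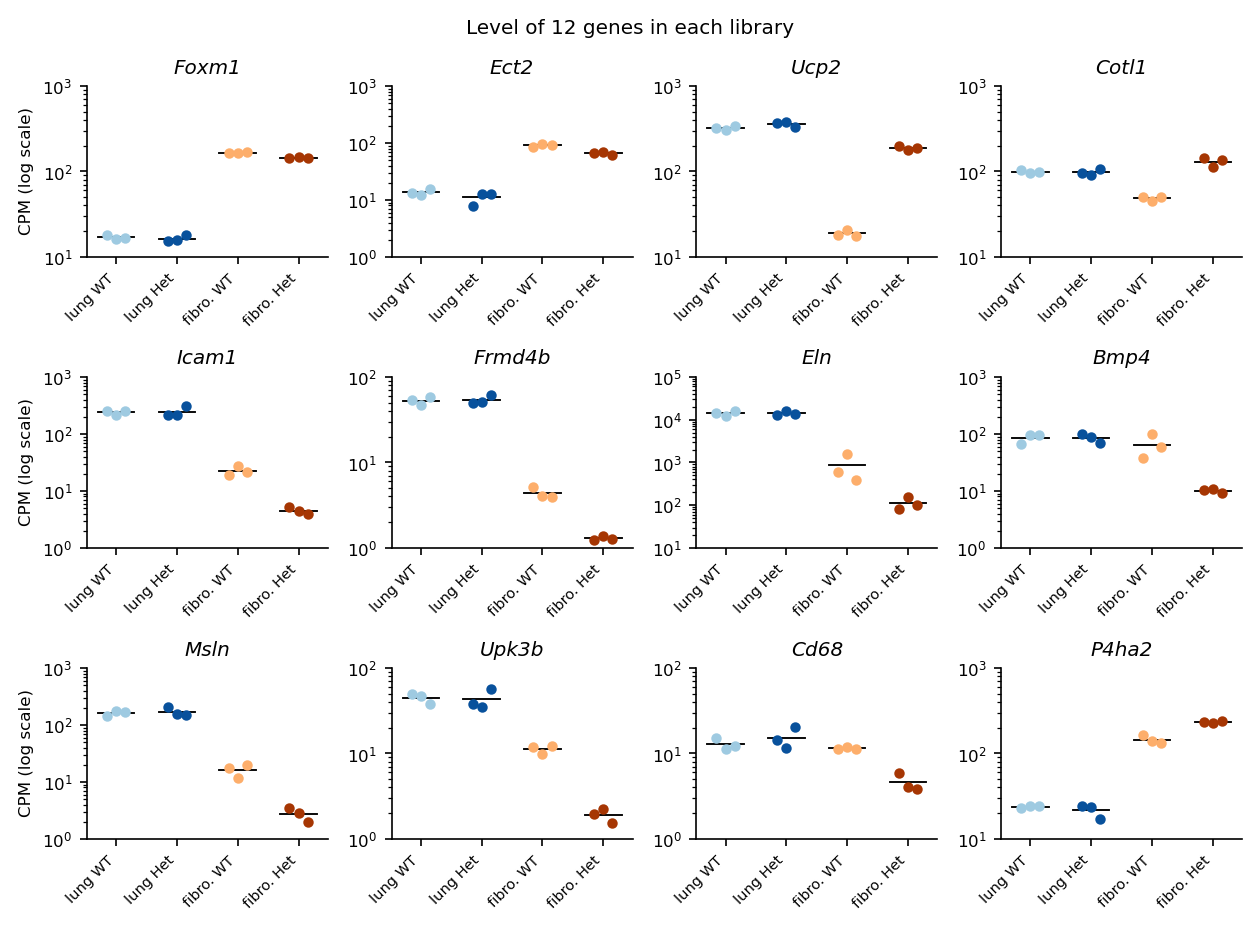
Level of 12 genes in each of the 3 libraries of the 4 groups, in CPM on a log axis whose range differs by gene; points are libraries and lines are group means. In Ucp2, Cotl1, Icam1, Frmd4b, Eln, Bmp4, Msln, Upk3b, Cd68 and P4ha2 the fibroblast groups are apart and the lung groups overlap.

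Of 9 tested mesothelial genes, which mark the lining of body cavities, 5 fell in Het fibroblasts, none was called in lung and 3 were higher in the interaction. Of all genes tested, 4.14 percent fell in fibroblasts and 0.813 percent were higher in the interaction. Upk3b, a uroplakin, was 11.9, 9.85 and 12.3 CPM in WT and 1.98, 2.22 and 1.56 CPM in Het fibroblasts, and 37.5 to 49.99 against 35.4 to 57.0 CPM in lung (interaction 2.52 ± 0.28 SE, edgeR adjusted p = 0.00366). Msln, mesothelin, was 17.3, 11.8 and 19.9 against 3.51, 2.89 and 1.96 CPM in fibroblasts, and 144, 179 and 167 against 209, 154 and 153 CPM in lung (2.62 ± 0.32, edgeR adjusted p = 0.00457). Both were separated between the fibroblast groups and mixed between the lung groups. Upk1b, another uroplakin, had 1.76 (edgeR adjusted p = 0.00981), and these 3 passed without any 1 library, with 5 members passing without Lung Het 3. Lrrn4 (2.46, edgeR adjusted p = 0.0596) and the keratin Krt18 (1.21, 0.0815) fell in fibroblasts without passing in the interaction. Wt1, a transcription factor found in mesothelium, had a fibroblast log2 change near 0 and Bnc1 was above 0 there (0.85), and neither was called. The list's median was -1.16 in fibroblasts and 0.07 in lung, beside -0.01 and 0.01 over all genes.

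Macrophage genes had the lowest fibroblast median of the lists, -2.41, and a median of -0.01 in lung. Of 18 tested, 11 fell in fibroblasts, beside 4.14 percent of all genes. In the interaction 1 was called, beside 1.12 percent of all: Cd68, a lysosomal glycoprotein. Cd68 was 11.3, 11.9 and 11.3 CPM in WT and 5.92, 4.04 and 3.83 CPM in Het fibroblasts, and 15.2, 11.4 and 12.3 against 14.2, 11.4 and 20.2 CPM in lung (interaction 1.56 ± 0.32 SE, edgeR adjusted p = 0.0454). It kept its call only without Lung Het 2, Lung Het 3 or fibroblasts Het 1 (up to 0.129 without each of the other nine). The receptor Csf1r, which macrophages need to survive, was 24.6, 26.6 and 31.0 CPM in WT and 9.51, 1.91 and 3.74 CPM in Het fibroblasts, with an interaction of 2.40 (edgeR adjusted p = 0.069). Emr1, the F4/80 antigen, was 11.4, 12.9 and 12.2 against 2.84, 0.168 and 1.21 CPM (3.21, edgeR adjusted p = 0.125). Het fibroblast libraries were thus all below WT but differed among themselves by several fold. The list's summed level was 208 to 251 CPM in WT and 13.7 to 85.5 CPM in Het fibroblasts, and 1869 to 2377 against 1479 to 2202 CPM in lung. Without fibroblasts Het 1, 12 members passed in the interaction. The median interaction was 2.42, or 2.36 with the 2 members that had a group at 0 counts at their bound.

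Several genes called in the interaction are also known from leukocytes, among them Blnk, Il10ra, Cd36, Icam1, Clec12a and Dennd1c. Each was lower in all 3 Het than in all 3 WT fibroblast libraries. All 133 genes higher in the interaction were called lower in Het fibroblasts, so a fall in these genes followed from their choice. Within Het, the summed macrophage level was 85.5, 13.7 and 31.8 CPM in libraries 1, 2 and 3, while Blnk was lowest in library 1 and the other five were highest there. The part of macrophage RNA in their changes was not tested. Clec12a, a lectin receptor of myeloid cells on chromosome 6, was 2.63, 4.42 and 3.02 CPM in WT and 0.696, 0.112 and 0.0623 CPM in Het fibroblasts and 4.72 to 6.27 CPM in all lungs (interaction 3.49, edgeR adjusted p = 0.0499). It passed only without Lung Het 3 or fibroblasts Het 1 (up to 0.121).

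**Figure D3:**
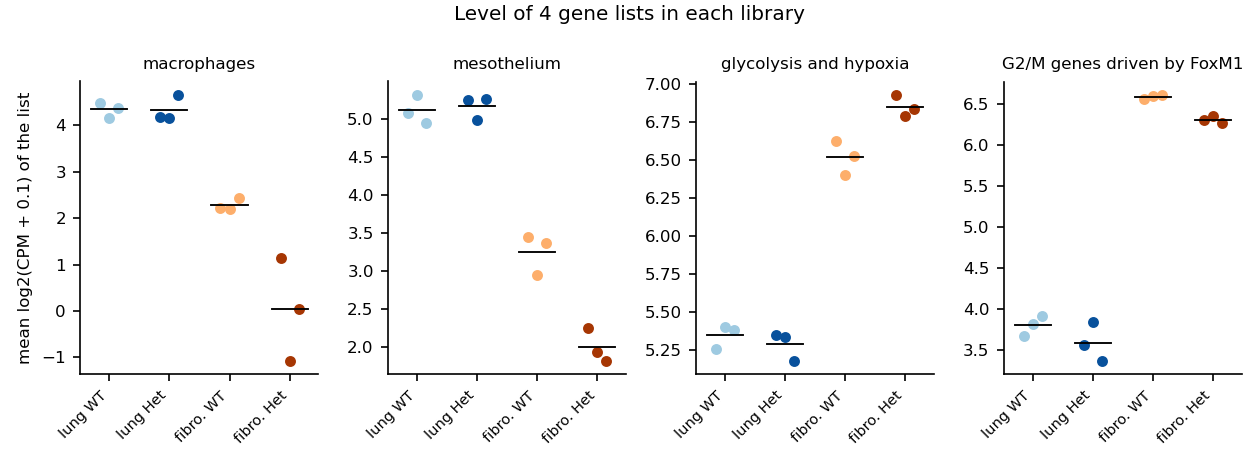
Mean log2(CPM + 0.1) of 4 gene lists in each library; points are libraries and lines are group means, and the y axes differ and do not start at 0. Het fibroblasts are below WT for macrophages, mesothelium and G2/M genes and above for glycolysis, and lung groups overlap in each.

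Ligands and matrix genes of mesenchyme went the same way in part. Bmp4, a BMP ligand, was 38.0, 98.0 and 58.9 CPM in WT and 10.5, 10.7 and 9.10 CPM in Het fibroblasts, and 66.7 to 97.6 against 69.0 to 100 CPM in lung (interaction 2.67 ± 0.41 SE, edgeR adjusted p = 0.0144). Tgfbi, which encodes a secreted adhesion protein, went the other way: it was 90.5, 127 and 109 against 327, 301 and 269 CPM in fibroblasts and 607 to 911 CPM in lung (-1.50 ± 0.23, edgeR adjusted p = 0.0139). Both passed without any 1 library. These were the 2 called of 24 BMP and TGF-beta genes, of which 2 rose and 8 fell in fibroblasts. The shares over all genes were 1.12 percent called, 1.87 percent risen and 4.14 percent fallen. The homeobox gene Msx1 (3.85, edgeR adjusted p = 0.0506), the BMP antagonist Nog (1.98, 0.0513) and the ligand Gdf10 (3.59, 0.0518) were just over the threshold. Without fibroblasts WT 1, 6 members were higher in the interaction and 1 lower.

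Among 35 matrix genes 2 rose and 7 fell in fibroblasts and 2 were higher in the interaction. Over all genes these shares were 1.87, 4.14 and 0.813 percent. Eln, elastin, which is laid down in alveolar walls at this age, was 594, 1601 and 380 CPM in WT and 79.9, 152 and 102 CPM in Het fibroblasts, beside 12162 to 15702 and 12975 to 15847 CPM in lung. The WT fibroblasts differed widely among themselves, and all lay above all Het ones. The interaction of 2.94 ± 0.61 (SE, edgeR adjusted p = 0.0477) was kept only without 1 of the WT fibroblasts and lost without any other library (up to 0.124). Mfap4, a microfibril protein of elastic fibres, was 206, 184 and 97.9 against 44.5, 50.5 and 46.1 CPM in fibroblasts and 3566 to 5012 CPM in lung (1.81, edgeR adjusted p = 0.0263). It lost its call without Lung WT 1, 2 or 3, Lung Het 1 or 2 or fibroblasts WT 2, Het 2 or Het 3 (up to 0.0828). The matrix list as a whole had medians of 0.06 in fibroblasts and -0.06 in lung, and the former was -0.02 without fibroblasts WT 3.

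Of 30 tested genes of glycolysis and hypoxia, 10 rose and none fell in Het fibroblasts, none was called in lung and 1 was lower in the interaction. Of all genes tested, 1.87 percent rose and 4.14 percent fell in fibroblasts, and 0.312 percent were lower in the interaction. P4ha2, a collagen prolyl hydroxylase, was 163, 139 and 133 CPM in WT and 233, 226 and 242 CPM in Het fibroblasts, and 23.1, 24.2 and 24.2 against 24.0, 23.5 and 17.1 CPM in lung. Its interaction was -0.83 ± 0.18 (SE, edgeR adjusted p = 0.0493) and passed only without Lung Het 1, Lung Het 3 or fibroblasts WT 1 (up to 0.125 without each of the other nine). Bnip3, a mitophagy receptor, rose in fibroblasts from 54.6, 40.9 and 42.9 to 99.3, 88.7 and 92.9 CPM, and was 34.2 to 47.4 and 34.2 to 47.7 CPM in lung (-1.01, edgeR adjusted p = 0.053). Egln3, an oxygen-sensing hydroxylase (-1.43, 0.0514), the lactate transporter Slc16a3 (-1.11, 0.0723) and Vegfa (-0.57, 0.132) had fibroblast rises that also missed the threshold in the interaction. The list's median was 0.30 in fibroblasts and -0.06 in lung, and 26 of 29 members with counts in both tissues were below 0 in the interaction, beside 7358 of 15490 genes in all. Without Lung Het 3 or without fibroblasts WT 1, 7 members passed in the interaction.

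Genes of G2 and mitosis mostly had values below 0 in both tissues. Of 42 tested, 40 were below 0 in fibroblasts, 38 in lung and 40 had the same sign in both, beside 7994 of 15490 genes in all. Medians were -0.33 in fibroblasts and -0.20 in lung, -0.12 in lung without Lung Het 3, where 33 were below 0, and -0.34 without Lung Het 2. In fibroblasts 8 fell and 1 rose, beside 4.14 and 1.87 percent of all genes. In lung none passed, and none passed in the interaction, whose median was 0.11, or -0.07 without Lung Het 2. Ccnb1, the mitotic cyclin B, was 175, 189 and 195 CPM in WT and 136, 142 and 135 CPM in Het fibroblasts, and 13.6, 14.4 and 14.7 against 10.8, 12.7 and 9.09 CPM in lung. Its groups did not overlap in either tissue, with log2 changes of -0.44 (edgeR adjusted p = 0.0329) and -0.39 (1). Aspm, a spindle pole protein, was 72.0, 68.8 and 64.8 against 46.9, 48.2 and 45.1 CPM in fibroblasts and 12.2, 11.8 and 13.8 against 8.97, 11.1 and 9.001 CPM in lung, again without overlap (-0.55 and -0.38). Ccnb1 and Aspm were named after their values were seen. How many of the 42, or of all genes, were separated in both tissues was not counted. The kinase Nek2 (-0.61 and -0.13) and the phosphatase Cdc25b (-0.65 and -0.17) had larger values in fibroblasts, with interactions of 0.48 each (edgeR adjusted p = 0.348 and 0.142). Securin's gene Pttg1 alone of the list rose in fibroblasts, from 8.68, 8.75 and 11.1 to 23.6, 29.8 and 19.997 CPM, and was 26.2 to 36.5 against 24.4 to 52.4 CPM in lung (interaction -1.04, edgeR adjusted p = 0.255). The 95% interval of the interaction ran from -0.29 to 0.39 for Ccnb1 and from -0.14 to 0.50 for Aspm, so a difference between tissues within those bounds could not be told from 0.

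The windows before the start sites of these genes were searched because most were below 0 in both tissues. Many genes of the late cell cycle carry a CHR element, a short motif bound by complexes through which FoxM1 is recruited. It was searched as TTTGAA or TTCGAA on both strands in the 250 bases before the start site (RefSeq, GRCm38.p6). The letters were found for 12 of the 36 G2/M genes with an entry (33.3%) and for 1508 of 12075 genes tested (12.5%), and for 10 of 97 genes higher (10.3%) and 4 of 34 lower (11.8%) in the interaction. A match is a description of letters, not a bound site. The list holds genes of the late cell cycle, so its share describes the list and not the Het effect. Members with and without the motif were not compared. The G2/M genes with a match that had the lowest fibroblast values were Cdc20, the activator of the anaphase-promoting complex (-0.42 in fibroblasts and -0.28 in lung), and Ccnf, cyclin F (-0.39 and -0.18), neither of them called. Their windows are chr4:118437344-118437593 and chr17:24251410-24251659, both read from the minus strand, with the motif in capitals.
Cdc20: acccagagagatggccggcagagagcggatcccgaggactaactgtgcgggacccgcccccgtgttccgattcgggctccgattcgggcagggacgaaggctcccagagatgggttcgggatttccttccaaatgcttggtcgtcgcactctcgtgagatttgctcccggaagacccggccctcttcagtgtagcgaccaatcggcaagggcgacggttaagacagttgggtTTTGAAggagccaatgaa
Ccnf: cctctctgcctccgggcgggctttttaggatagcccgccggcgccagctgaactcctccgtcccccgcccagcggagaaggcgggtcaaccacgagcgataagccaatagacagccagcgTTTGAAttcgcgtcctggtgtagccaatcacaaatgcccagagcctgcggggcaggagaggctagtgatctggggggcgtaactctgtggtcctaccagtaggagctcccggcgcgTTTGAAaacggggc

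The remaining lists held 0 or 1 call in the interaction, and with 1.12 percent of all genes called, lists of this size hold few or none at that share. None of 38 G1/S genes passed in the interaction and 3 fell in fibroblasts, with medians of -0.22 and -0.07 in the 2 tissues. Of all genes, 4.14 percent fell in fibroblasts. Of the 38, 37 were below 0 in fibroblasts, 30 in lung and 31 had the same sign in both. Like signs were thus not particular to the G2/M genes. In lung, 22 of 26 SRF targets, 20 of 24 BMP and TGF-beta genes and 18 of 23 immediate early genes were also below 0. Only 9 of 30 oxidative phosphorylation and 9 of 33 ribosomal protein genes were, beside 7310 of 15490 genes in all. As mean log2(CPM + 0.1), the SRF list overlapped between lung groups. The BMP list was 4.89 to 4.96 in Het and 5.02 to 5.06 in WT lungs, and immediate early genes 4.11 to 4.19 and 4.30 to 4.70. How many lists were so separated in lung was not counted. Of 34 interferon-stimulated genes 7 fell in fibroblasts and 1, Trim30a, passed in the interaction. The list's median was -0.67 in fibroblasts and -0.03 in lung, and the interferon-induced Ifit1 was 5.49, 4.74 and 2.41 CPM in WT and 1.23, 0.898 and 2.02 CPM in Het fibroblasts (interaction 1.4, edgeR adjusted p = 0.212). The list's mean level overlapped between the fibroblast groups: as mean log2(CPM + 0.1) it was 2.41, 2.26 and 1.502 in WT and 1.51, 1.22 and 1.60 in Het, with WT 3 inside the Het range. Of 22 imprinted genes 3 fell in fibroblasts and none passed in the interaction, with medians of -0.52 and 0.01. Its lowest p was that of Plagl1, a zinc finger factor (1.09, edgeR adjusted p = 0.0625). The small heat shock protein Cryab (1.55, edgeR adjusted p = 0.0252) was the 1 call of 14 heat shock genes, and the microtubule gene Map2 (2.05, 0.0254) the 1 of 11 neural genes. Cryab lost its call without Lung WT 1, 2 or 3, Lung Het 2 or fibroblasts WT 2 or Het 3 (up to 0.0741) and Map2 without Lung WT 1, 2 or 3, Lung Het 2 or fibroblasts WT 3, Het 2 or Het 3 (up to 0.0793). No gene passed in the interaction among 25 endoplasmic reticulum stress genes, 25 of cholesterol synthesis, 33 ribosomal protein genes, 30 of oxidative phosphorylation, 33 Hox genes, 28 p53 targets, 26 SRF targets, 23 immediate early genes, 20 clock genes or 18 glucocorticoid targets.

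**Figure D4:**
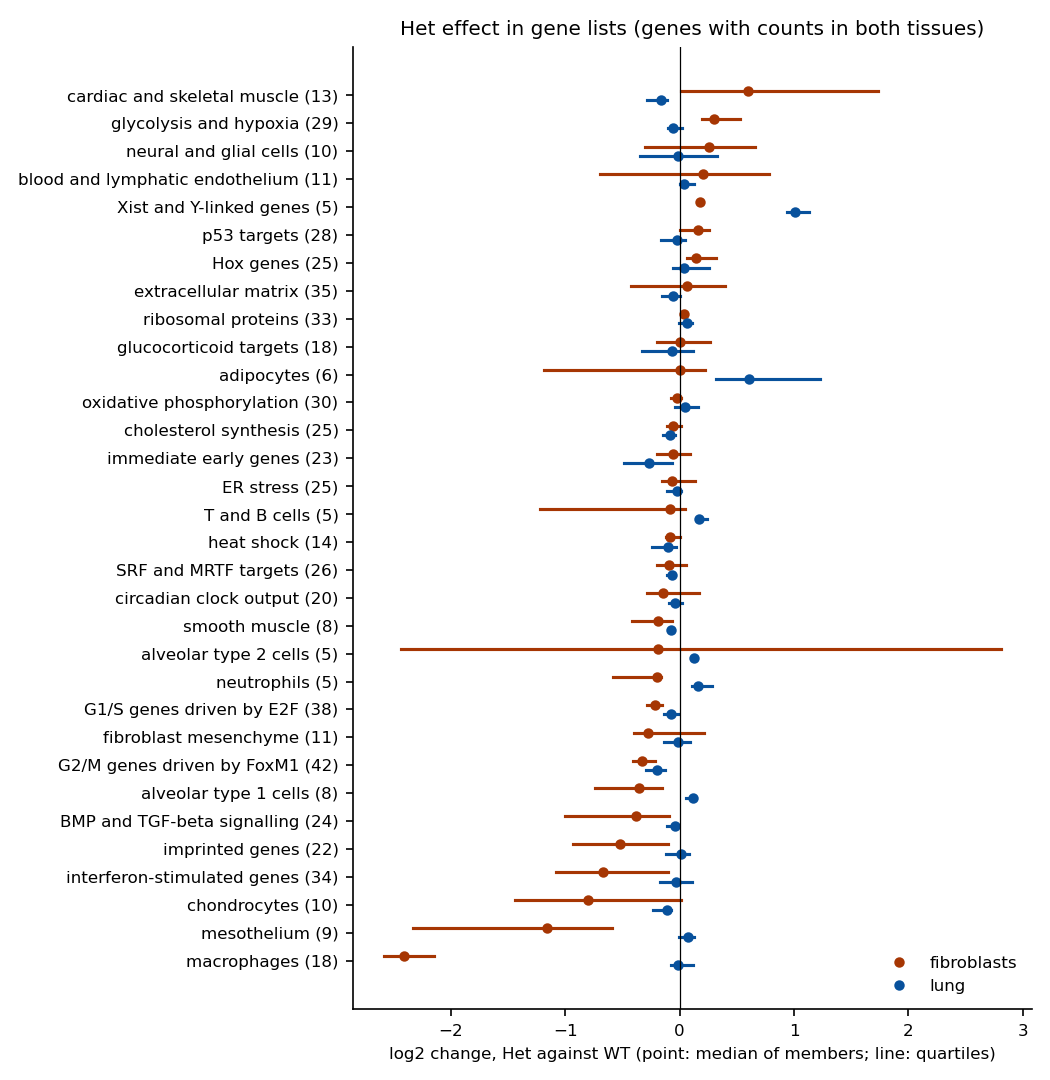
Median (point) and quartiles (line) of the log2 change of Het against WT over the members of each list drawn (those with at least 5 members with counts in both tissues), in fibroblasts and in lung; the number of members is in brackets. Fibroblast medians run from -2.41 for macrophages upward, while most lung medians lie near 0. Farthest from 0 in lung are Xist and Y-linked genes (1.01), adipocytes (0.60), immediate early genes (-0.26) and G2/M genes (-0.20). Y-linked RNA was high in more Het than WT lungs: in WT 2, Het 2 and Het 3. Mean adipocyte levels on the log2 scale were 1.97, 2.85 and 2.38 in WT and 2.69, 1.91 and 4.11 in Het lungs. Only Lung Het 3 was above the WT range for adipocytes.

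A mean of at least 1 CPM in at least 1 group was reached in both tissues by 162 of the 184 called genes, beside 12190 of 16364 tested, in lung alone by 18, in fibroblasts alone by 2 and in neither by 2. The higher group alone can meet this, as Het did for Eltd1 in fibroblasts. Those of lung alone were at trace levels in the cultures. Tal1, a transcription factor of blood and endothelium, was 0.328, 0.635 and 0.386 CPM in WT and 0.0536, 0.0561 and 0.0623 CPM in Het fibroblasts, 45 against 6 counts (ratio 7.94, 95% counting interval 3.38 to 22.8), and 17.9 to 22.1 CPM in lung. St8sia4, a polysialyltransferase, had an interaction of 1.89 and passed, as Tal1 did (2.81), without any 1 library. Gsta3, a glutathione transferase (2.53, edgeR adjusted p = 0.0191), did not pass without Lung WT 3 (0.0524), nor Dennd1c, a Rab activator (3.69, 0.0191), without Lung WT 2, Lung WT 3 or fibroblasts Het 3 (up to 0.0622). Cxcl15, a chemokine of lung epithelium at 847 to 1207 CPM in lung, had 92 counts over the WT and 6 over the Het fibroblasts (interaction 4.06, edgeR adjusted p = 0.0488), and passed only without Lung Het 3 or fibroblasts WT 3 (up to 0.131). It was the 1 call in the interaction among 10 alveolar type 2 markers, of which it and the lysozyme gene Lyz1 fell in fibroblasts and none rose. Shares over all genes were 1.12 percent in the interaction, and 4.14 percent falling and 1.87 percent rising in fibroblasts. The surfactant gene Sftpb had 1 count over the WT and 25 over the Het fibroblasts (edgeR adjusted p = 0.0694), and Sftpc had 2 and 17 (0.401).

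Genes near Foxm1 were counted apart. Of 100 genes tested within 5 Mb of it on chromosome 6, 2 passed in the interaction (2%, beside 1.12 percent of all genes) and 3 in fibroblasts (beside 6.01 percent of all). One was Clec12a and the other Ntf3, a neurotrophin, which was 1.16, 2.43 and 1.32 CPM in WT and 0.107, 0.168 and 0.0623 CPM in Het fibroblasts and 1.57 to 4.84 CPM in lung (interaction 3.94, edgeR adjusted p = 0.0361). Ntf3 passed only without Lung Het 3 or fibroblasts WT 1 (up to 0.105).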

How the data were processed

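The authors deposited raw read counts per gene symbol. Per the submitters' processing notes, mm10 was the build and the tools named are Subread with featureCounts 1.4.6, Bowtie2 2.2.6 and TopHat2 2.0.14; the annotation and strand setting are not given in the sources used here. From these counts, after filterByExpr by group and TMM scaling over the 12 libraries, 1 edgeR 4.0.16 quasi-likelihood fit (R 4.3.3, robust, 1 coefficient per group, 8 residual degrees of freedom) gave both Het effects and their difference, two-sided, Benjamini-Hochberg adjusted over 16364 genes, threshold 0.05. The common biological coefficient of variation was 0.21 in this fit, 0.255 in lung alone and 0.121 in fibroblasts alone. Counting intervals cover counting error only. Even the most alike replicates exceeded sampling noise (chi-square 10.4 per degree of freedom), and every library counted as 1 sample. With 3 libraries a group, an exact permutation p cannot be under 0.1, and none was computed. Coordinates are from GENCODE M21 on GRCm38, the assembly of mm10.

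Named genes were Foxm1, Ect2, Rhoa and Diap1; the 10 highest and 10 lowest interactions among called genes with a mean of at least 1 CPM in both tissues and an average log2 CPM of at least 1, leaving out predicted symbols; genes called in both tissues, of which there were 0; the 4 lowest p among genes under 1 CPM in a tissue; up to 4 per list by p; and called genes within 5 Mb of Foxm1. Members and lists were chosen with earlier results of these data known. Some further list members, Ccnb1 and Aspm among them, were named outside these rules after their values were seen. Lists of 20 pathways and 16 cell types are described by counts and medians, with no list test; 1 of them is not reported here. Alternatives were other scalings and filters, DESeq2 1.42.0, limma 3.58.1 voom with tissue weights, a separate fit per tissue, a replicate block, and leaving out each library.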

Additional observations from a re-analysis of the deposited data

Results flagged for a closer look

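The Het effect differed between lung and fibroblasts, by the test of the difference itself (edgeR quasi-likelihood test of the interaction), for 184 genes, and each gene below is listed because it is among them and named in the text. Among genes lower in Het fibroblasts, the adjusted p was 0.000172 for Trim12a, 0.000198 for Trim30d, 0.00184 for Arl5a, 0.0025 for Icam1, 0.00285 for Frmd4b, 0.00366 for Upk3b, 0.004 for Blnk, 0.00457 for Msln, 0.00542 for Lrrtm3, 0.00585 for Epb4.1l4b and 0.00592 for Rnaset2b. It was 0.00981 for Upk1b and Tal1, 0.0102 for Olfml1, 0.0144 for Bmp4, 0.0165 for St8sia4, and 0.0191 for Cd36, Gsta3 and Dennd1c. It was 0.0252 for Cryab, 0.0254 for Map2, 0.0263 for Mfap4, 0.032 for Trim30a and Cdh8, 0.0361 for Il10ra and Ntf3, 0.0454 for Cd68, 0.0473 for Bmp3, 0.0477 for Eln, 0.0484 for Fgf16, 0.0488 for Cxcl15 and 0.0499 for Clec12a. Among genes higher in Het fibroblasts it was 8.66e-07 for Ucp2, 0.00184 for Cotl1, 0.004 for Eltd1, Rbm46 and Rasl12, 0.00472 for Pygl, 0.0128 for Rbp4 and Aoc3, and 0.0139 for Dynlt1b, Rps15a-ps6 and Tgfbi. It was 0.0155 for Wnt7b, 0.0166 for Apold1, 0.0254 for Cdh5 and Kcnh1, 0.0295 for Cilp, 0.0399 for C330024D21Rik, 0.0436 for Gm10653 and 0.0493 for P4ha2.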

How the results depend on the processing

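Of the settings that changed a count by over 1.5 times, DESeq2 gave 734 genes in the interaction (512 higher, 222 lower), 1 in lung and 1580 in fibroblasts (498 higher, 1082 lower), and voom with tissue weights 2007 in fibroblasts (821 higher, 1186 lower). Leaving out 1 library at a time gave 39 to 546 genes in the interaction, 441 to 1417 in fibroblasts and 0 in lung. The 546, of which 287 were higher, came without Lung Het 3, where lung had 2898 of 16558 genes at an unadjusted p under 0.05. Without Lung WT 1 and Lung Het 3 together, a setting chosen after seeing the data, counts were 531 in the interaction (244 higher, 287 lower), 29 in lung and 1608 in fibroblasts, so the share that was higher changed too. The cause of these shifts was not tested. Deviations of same-numbered libraries from their group means had correlations of -0.33, 0.114 and -0.272 in lung and -0.155, 0.148 and -0.0597 in fibroblasts. Such values show no strong likeness by replicate number, but cannot tell whether the libraries were paired. With a replicate block within tissue the interaction called 39 genes, 35 of them among the 184, and fibroblasts 415. Scalings and filters kept all counts within 1.5 times. So did a separate fit of the fibroblasts, with 1389 genes, but its balance differed. There 617 rose and 772 fell, so 44.4 percent rose, against 31.1 percent in the joint fit. No gene whose interaction is called and named in the text changed its direction under these alternatives, while several list medians near 0 did, such as that of the matrix list in fibroblasts. Each group held 3 libraries.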

Other observations

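Genes called in the interaction were also looked at by position. The window of 10 Mb with the most of them, chosen after the values were seen and so given without a test, lay on chromosome 7 from 97788541 to 107591094. It held 7 of 109 genes tested (6.42%) in the interaction and 15 in fibroblasts (13.8%), beside 1.12 percent and 6.01 percent of all genes. The 7 were Pak1, Ucp2, Folr2, Trim12a, Trim30a, Trim30d and Olfml1, of which Ucp2 and Pak1 rose and the others fell in Het fibroblasts. Foxm1 lies on chromosome 6.

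Without Lung WT 1 and Lung Het 3, a choice made after the data were seen, edgeR called 29 genes in Het against WT lung, 27 lower and 2 higher. The 2 higher ones were the ribosomal genes Rpl38 (log2 change 0.49) and Rps4l (0.53). Among the lower were the Wnt signalling gene Dvl3 (-0.75), the myosin phosphatase subunit Ppp1r12a (-0.58), the G protein subunit Gna12 (-1.08), the desaturase Fads2 (-0.66) and the ephrin receptor Epha3 (-0.97). With all 6 lungs the same genes had log2 changes of -0.07, -0.07, 0.19, -0.09 and -0.21, each with edgeR adjusted p = 1, and 0.32 for Rpl38 and 0.37 for Rps4l. Gna12 thus had the other sign with all lungs, and it was not alone among the 27. Uhmk1 went from -1.16 to 1.12 with all lungs, Palm2 from -1.19 to 0.61 and Mib1 from -0.79 to 0.44. Others of the 27 changed sign with smaller values, and the rest stayed below 0.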
